A study of Homo sapiens with 6 samples.

Results

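The genes described here are 10 mitotic cyclins and kinases, taken by symbol from a named set: the cyclin genes CCNA2, CCNB1 and CCNB2, the cyclin-dependent kinase gene CDK1, its activating phosphatase gene CDC25C, and the kinase genes PLK1, AURKA, AURKB, NEK2 and PBK. Each of the 10 matched 1 row of the authors' deposited table, which lists 6831 genes, or 45.3% of the 15064 that its adjusted p-values imply were tested. The cells were MOLM-13, a human cell line of acute myeloid leukaemia that carries a KMT2A fusion and is labelled wild type. They were cultured for 24 h with DMSO, the solvent, or with 50 nM DEG-35, a compound that the series title names as a degrader of both IKZF2, a zinc-finger transcription factor, and CK1A, a casein kinase. Each group had 3 RNA-seq libraries, and both groups came from this 1 line, and no other cells were examined. Only genes with an adjusted p below 0.05 are in the table, each with its p-values and its change on the log2 scale. It has no counts or values per library, so neither the level of a gene in a single library nor the depth behind it can be given. Its header does not name the numerator. The values are read as DEG-35 over DMSO, and the opposite order would reverse every direction given here. Of 10 myeloid marker genes 7 were listed (ITGAM, CSF1R, CD33, FLT3, LYZ, MPO and CEBPA), 6 of them higher with DEG-35 and 1 lower. Over all genes tested, 21.4% were called higher and 24.0% lower. Of 5 lymphoid markers 1, CD4, was listed, and it was higher, and of 3 erythroid markers 0 were listed. The part of these marker changes in the results below was not tested. A table without levels cannot show whether the labelled cell type fits its markers.

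Entry into mitosis depends on CDK1 bound to cyclin A and then to cyclin B. WEE1 and PKMYT1 hold the complex inactive by phosphorylating CDK1, and CDC25 phosphatases remove these marks. PLK1 and the Aurora kinases promote that switch, build the spindle and correct chromosome attachment, and NEK2 separates the centrosomes. The mRNAs of these genes are scarce in G1 and peak in G2 and mitosis. In non-dividing cells the DREAM complex holds many such promoters silent through a CHR (cell cycle genes homology region) element, and in cycling cells NF-Y, which binds the CCAAT box, and MYBL2 with FOXM1 activate them.

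Promoter stretches of 7 of the genes are shown because many promoters of this class have the CCAAT box and the CHR element in common. The genes were not picked by sequence. The class is known for these motifs, though, so motif counts among its genes are not independent of the choice. They come from the RefSeq promoter table of GRCh38.p14 and are reference sequence, not read from these cells. All lie before an annotated start, 5′ to 3′ along the gene. Capitals mark exact matches to CCAAT (written ATTGG where the match lies on the other strand) and to the CHR forms TTTGAA and TTTAAA.
CCNB1: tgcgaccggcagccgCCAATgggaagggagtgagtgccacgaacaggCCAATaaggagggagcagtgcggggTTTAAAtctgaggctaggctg
CCNB2: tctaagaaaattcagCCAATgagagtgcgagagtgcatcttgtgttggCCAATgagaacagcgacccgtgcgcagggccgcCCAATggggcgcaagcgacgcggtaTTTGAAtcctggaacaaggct
CCNA2: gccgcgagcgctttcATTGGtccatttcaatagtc
CDK1: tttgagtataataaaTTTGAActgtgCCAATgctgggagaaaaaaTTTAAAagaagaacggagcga
PLK1: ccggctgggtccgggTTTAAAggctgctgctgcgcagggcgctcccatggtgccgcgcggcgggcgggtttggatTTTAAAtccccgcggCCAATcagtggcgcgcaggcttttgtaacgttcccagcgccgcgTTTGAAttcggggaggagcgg
NEK2: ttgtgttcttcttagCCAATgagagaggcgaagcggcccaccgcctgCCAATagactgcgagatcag
AURKB: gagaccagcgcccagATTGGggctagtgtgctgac
The CCNB1 stretch is chr5:69167048-69167140 (plus strand), that of CCNB2 chr15:59105011-59105137 (plus strand) and that of CCNA2 chr4:121823920-121823954 (minus strand). CDK1 is shown before the more upstream of its annotated starts, at chr10:60778155-60778220 (plus strand), and PLK1 at chr16:23678726-23678880 (plus strand). NEK2 is shown at chr1:211675636-211675702 (minus strand) and AURKB, also before its more upstream start, at chr17:8210359-8210393 (minus strand).

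All 10 mRNAs were lower with DEG-35. Their log2 fold changes in the authors' deposited table ran from -2.73 to -1.53, with a median of -2.44, which is a 5.44-fold lower level. Over all genes tested, 24.0% were called lower at an adjusted p below 0.05 and 19.7% at one below 0.01, which all 10 genes also met. A log2 fold change of -1 or below was reached by all 10 genes and by 4.08% of the genes tested. One of -2 or below was reached by 8 of the 10 and by 1.19% of the genes tested. The 10 genes were chosen with earlier results of these data known, so these contrasts are a description and not a test. The median over all lower genes of the table was -0.45. The authors' scaling factors are not known, so every log2 value was also shifted by 0.3 up and down. All 10 genes stayed lower either way. That outcome was fixed by their values of -1.53 or below, so it does not bound the effect of the scaling. The least changed of the 10 stood 338th among the 3613 lower genes, ordered from the strongest fall. In a bulk culture, fewer cells in G2 or mitosis and less of each mRNA per cell cannot be told apart. Nothing in the labels tells whether libraries of 1 group were grown as separate cultures, and the spread behind the p-values may be technical.

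**Figure D1:**
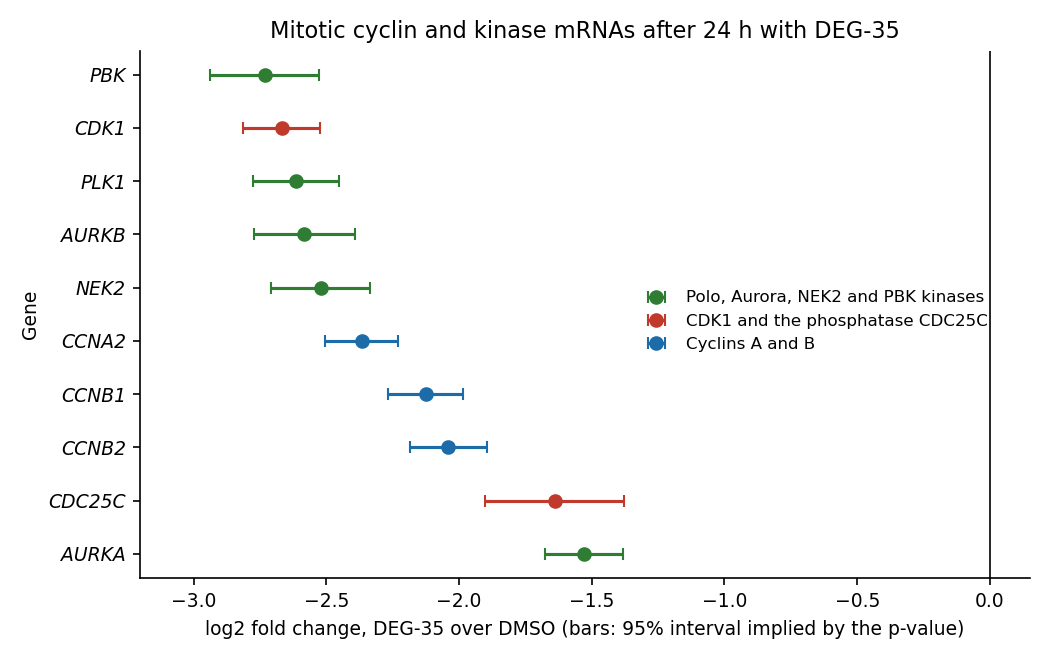
Log2 fold change of DEG-35 over DMSO (x axis) for each of the 10 genes (y axis), ordered from the strongest fall; points are the deposited values, bars the 95% intervals implied by their p-values, colours the roles. All intervals lie below 0, and PBK, CDK1, PLK1, AURKB and NEK2 form a group between -2.73 and -2.52.

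Each error below is a standard error (SE) worked out from a gene's fold change and p-value, taken as a Wald test, and the intervals are 95% intervals built from it. They carry the spread of the 3 libraries per group only through the authors' model. For the 10 genes the implied SE lay between 0.0702 and 0.134 (median 0.0784), against a median of 0.0891 over the table. AURKB, NEK2, PBK and CDC25C lay above the table's median and the other 6 below it.

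Among the cyclins, CCNA2, whose product carries CDK1 and CDK2 through S phase into early mitosis, fell 5.16-fold, at -2.37 ± 0.0702 on the log2 scale in the authors' deposited table (adjusted p = 1.71e-246). CCNB1, the main mitotic cyclin, fell 4.36-fold, at -2.13 ± 0.0719 (adjusted p = 1.30e-189 in the authors' deposited table). CCNB2, the B-type cyclin associated with the Golgi, fell 4.11-fold, at -2.04 ± 0.0744 (adjusted p = 3.61e-163 in the authors' deposited table). Both B-type cyclins had nearly the same fall: their intervals, -2.27 to -1.98 and -2.19 to -1.89, overlapped over most of their length. The CCNA2 interval, -2.50 to -2.23, overlapped that of CCNB1 and lay below that of CCNB2.

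CDK1 itself, the kinase these cyclins activate, fell 6.35-fold, at -2.67 ± 0.0740 (adjusted p = 8.89e-281 in the authors' deposited table). By the deposited values CDK1 mRNA thus fell further than those of its 3 cyclins. Its interval, -2.81 to -2.52, lay below the intervals of all 3, though only just below that of CCNA2, which began at -2.50. These differences between genes were not tested, since a test needs values per library. CDC25C, whose product activates CDK1, fell 3.12-fold, at -1.64 ± 0.134 (adjusted p = 9.26e-33 in the authors' deposited table). It had the widest interval of the 10, from -1.90 to -1.38, and was the 1 gene of the 10 outside the 200 smallest p-values.

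Of the remaining kinases, 4 of 5 fell about as far as CDK1. PBK, a mitotic kinase also known as TOPK, had the strongest fall of the 10, 6.65-fold, at -2.73 ± 0.105 (adjusted p = 2.79e-147 in the authors' deposited table). PLK1, the polo-like kinase of mitotic entry and spindle assembly, fell 6.12-fold, at -2.61 ± 0.0822 (adjusted p = 1.52e-219 in the authors' deposited table). PBK and PLK1 thus lay on either side of CDK1 in the order. AURKB, the kinase of the chromosomal passenger complex, fell 5.99-fold, at -2.58 ± 0.0969 (adjusted p = 2.72e-154 in the authors' deposited table). NEK2, the centrosome kinase, fell 5.74-fold, at -2.52 ± 0.0953 (adjusted p = 5.01e-152 in the authors' deposited table). These 4 intervals overlapped one another and that of CDK1, so the order within this group is not resolved.

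AURKA, the centrosome and spindle-pole Aurora kinase, had the smallest fall of the 10. It was 2.89-fold lower, at -1.53 ± 0.0747 (adjusted p = 3.82e-91 in the authors' deposited table). Its interval, -1.68 to -1.38, overlapped only that of CDC25C among the other 9 genes. AURKA and AURKB thus differed by 1.05 on the log2 scale, a 2.08-fold gap in the size of their falls. No test of that difference could be made, because the covariance of 2 genes measured in the same libraries needs values per library. Along the whole order each gene's interval overlapped that of the next.

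The order by p-value was not the order by size of the fall. By p-value CDK1 came 6th among all 6831 genes of the authors' deposited table, CCNA2 15th, PLK1 33rd, CCNB1 53rd and CCNB2 79th, followed by AURKB at 95, NEK2 at 98, PBK at 104, AURKA at 195 and CDC25C at 532. PBK, with the strongest fall, stood behind all 3 cyclins here because its implied SE of 0.105 was larger than theirs. As folds, the interval of PBK ran from 5.76 to 7.66 times lower, that of CDK1 from 5.75 to 7.03, that of CCNB1 from 3.96 to 4.81 and that of AURKA from 2.61 to 3.19. Among the 5957 genes of the table with an implied SE of at most 0.2 or a p of 0, PBK had the 2nd strongest fall, CDK1 the 5th, PLK1 the 16th, AURKB the 20th and NEK2 the 32nd. CCNA2 was 64th, CCNB1 108th, CCNB2 133rd, CDC25C 232nd and AURKA 258th in that order. So 5 kinases lay within the 32 strongest falls of precisely measured genes, the cyclins followed, and CDC25C and AURKA came last. The CCNA2 interval overlapped those of PLK1, AURKB and NEK2, so the order of CCNA2 against these kinases is not resolved.

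**Figure D2:**
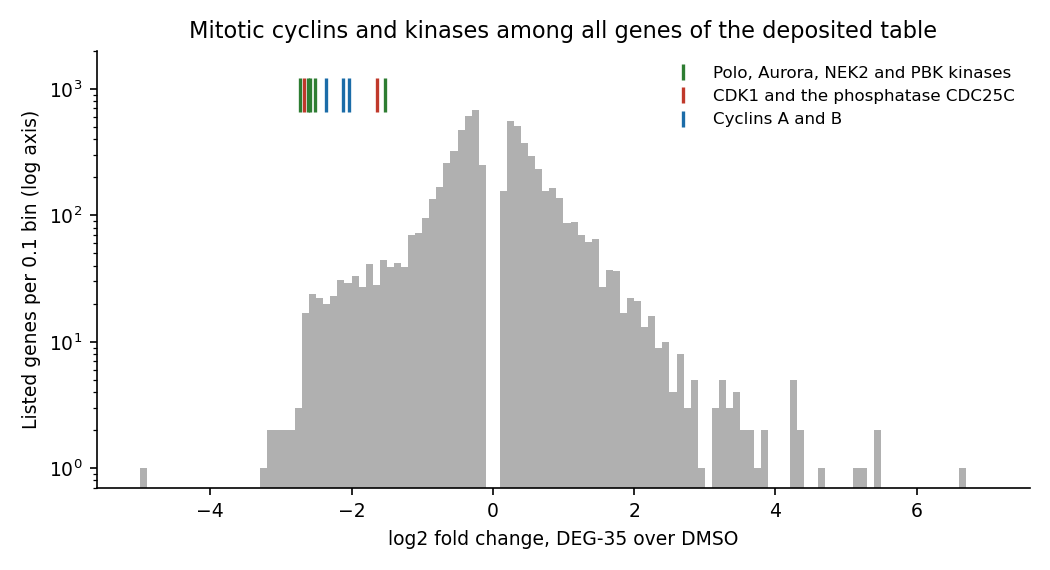
Number of listed genes (y axis, log scale) by log2 fold change of DEG-35 over DMSO (x axis, bins of 0.1) for the 6831 genes of the deposited table, with the 10 mitotic genes as coloured marks. The marks lie in the lower tail between -2.73 and -1.53; genes with small changes are missing because the table holds called genes alone.

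Several of these genes share their locus with another gene. In GENCODE release 29, ESCO2, a cohesin acetyltransferase gene of S phase, overlaps PBK on the other strand, and its value there was -2.52 ± 0.0813 on the log2 scale in the authors' deposited table. EXOSC9, an RNA exosome subunit gene, overlaps CCNA2 in the same way and stood at -1.19 ± 0.0762 in the authors' deposited table. ERN2, which overlaps PLK1 on the other strand, stood at -2.48 ± 0.308 in the authors' deposited table, close to PLK1 itself. FAM53C, which overlaps CDC25C, was not listed. On the same strand, AC092757.2 overlaps CCNB2 and the pseudogene FDPSP8 overlaps NEK2. Neither name was listed, and counting by strand would not separate these from the genes they overlap. The sources used here do not say whether reads were counted by strand, and the part of shared reads in these values was not tested. AURKA, NEK2 and CCNB2 have processed copies by name in the same annotation, and no copy was listed.

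Relatives in the same gene families went different ways; over all genes tested, 21.4% were called higher and 24.0% lower. Beside PLK1, PLK4, the kinase of centriole duplication, fell by 2.45 ± 0.0926 on the log2 scale, but the stress-responsive PLK2 and PLK3 rose by 1.30 ± 0.119 and 1.16 ± 0.128 in the authors' deposited table. Beside CCNA2, the germline and myeloid cyclin gene CCNA1 was higher, at 0.44 ± 0.120 (adjusted p = 7.26e-04 in the authors' deposited table). CCNB3, PLK5 and AURKC were not listed. Both relatives of CDC25C fell: CDC25A, which acts on the kinases of G1/S and mitosis, at -2.33 ± 0.0877, and CDC25B, at -1.73 ± 0.0900 in the authors' deposited table. Of the 10 other NIMA-related kinase genes 5 were listed, 2 lower and 3 higher. NEK7 stood at -0.53 ± 0.0768 and NEK4 at -0.59 ± 0.0926, whereas NEK6 stood at 0.43 ± 0.0689, NEK9 at 0.43 ± 0.0740 and NEK8 at 0.80 ± 0.175 in the authors' deposited table. The lowest of these, NEK4, stood far above NEK2, at -2.52. A gene that was not listed either did not pass the threshold or was not tested.

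Cyclin genes of other phases moved in both directions. Of 8 other cell cycle cyclin genes 7 were listed, 3 of them lower and 4 higher (median 0.17). CCNF, a G2 cyclin of a ubiquitin ligase, stood at -1.99 ± 0.0826, and the G1/S cyclins CCNE2 and CCNE1 at -1.78 ± 0.0868 and -1.09 ± 0.103 in the authors' deposited table. The D-type cyclins of early G1 were all higher: CCND2 at 0.67 ± 0.0646, CCND1 at 0.89 ± 0.151 and CCND3 at 0.17 ± 0.0744 in the authors' deposited table, although CCND3 would turn lower if every value of the table were shifted down by 0.3. Of 12 cyclin genes of transcription and other roles 5 were listed, all 5 of them higher, where 45.3% of all genes tested were listed and 21.4% were higher; the number listed is thus near the background. CCNG2 stood at 1.23 ± 0.0930 and CCNG1, a p53 target, at 0.85 ± 0.0628 in the authors' deposited table, and CCNI and CCNT2 would turn lower with the same downward shift.

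Other cyclin-dependent kinase genes showed smaller changes than CDK1 in both directions. Their counts were not far from the shares over all genes tested, 24.0% lower and 21.4% higher. Of 19 genes 11 were listed, 6 of them lower and 5 higher (median -0.21), where CDK8, CDK11B and CDK16 would turn higher with a shift of 0.3 up and CDK5, CDK6, CDK9 and CDK19 lower with a shift of 0.3 down. CDK2, the partner of cyclins E and A, was the 1 gene of the list with a log2 fold change of -1 or below, at -1.63 ± 0.0719 in the authors' deposited table. Of 7 CDK inhibitor genes 4 were listed, 3 lower and 1 higher. CDKN1A, which encodes the p53-induced inhibitor p21, was the higher one, at 1.91 ± 0.0579, while CDKN2C stood at -1.12 ± 0.0702 and CDKN1B at -0.42 ± 0.0753 in the authors' deposited table.

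**Figure D3:**
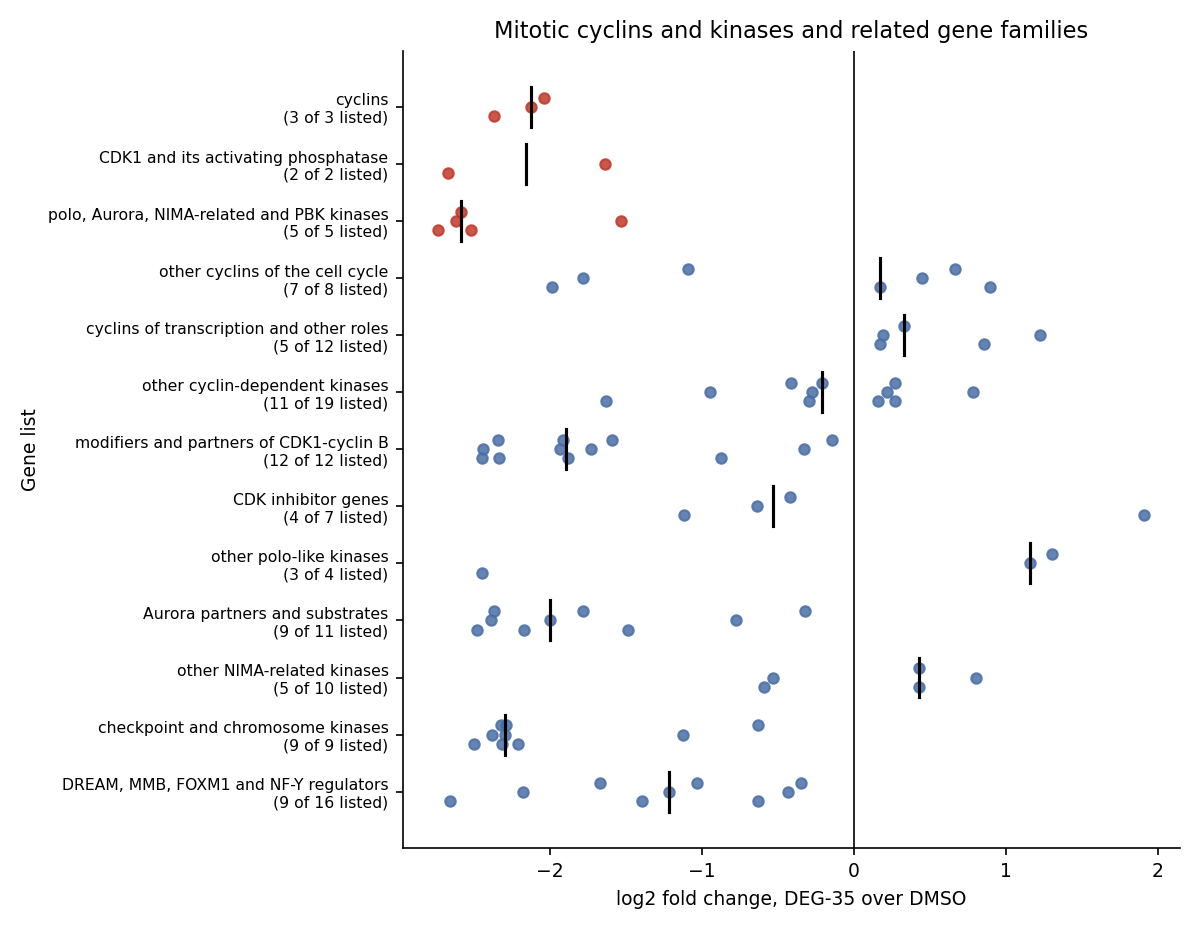
Log2 fold change of DEG-35 over DMSO (x axis) of each listed gene, by gene list (y axis, with listed genes of all genes in the list); red points are the 10 mitotic cyclins and kinases, blue points related genes, black bars the list medians. Modifiers of CDK1 and cyclin B, Aurora partners and checkpoint kinases lie on the lower side with the 10 genes, whereas other cell cycle cyclins and other cyclin-dependent, polo-like and NIMA-related kinases lie on both sides.

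Genes that modify CDK1 and cyclin B or work with them were all listed and all lower. This held for 12 of 12 genes, against 24.0% called lower over all genes tested, with a median of -1.90, and 1 of them, ENSA, at -0.15 ± 0.0580 in the authors' deposited table, would turn higher with a shift of 0.3 up. Both activators and inhibitors of CDK1 fell. Beside the CDC25 genes, the inhibitory kinase genes WEE1 and PKMYT1 stood at -1.93 ± 0.0854 and -2.45 ± 0.227 in the authors' deposited table. GTSE1, a microtubule-associated regulator of G2, stood at -2.44 ± 0.0930 and FBXO5, the inhibitor of the anaphase-promoting complex that lets cyclins accumulate, at -1.88 ± 0.0785 in the authors' deposited table.

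Partners of the Aurora kinases fell as well. Of 11 genes 9 were listed and all 9 were lower, with a median of -2.0, against 24.0% called lower over all genes tested. The passenger complex genes BIRC5 (survivin) and CDCA8 (borealin) stood at -2.48 ± 0.0752 and -2.36 ± 0.0810, and INCENP, the scaffold of the complex, at -1.78 ± 0.0891 in the authors' deposited table. TPX2, the activator of AURKA on the spindle, stood at -2.17 ± 0.0704, and BORA, which lets AURKA activate PLK1, at -0.77 ± 0.0800 in the authors' deposited table. AURKA, at -1.53, thus had a smaller fall than its activator TPX2, and AURKB, at -2.58, one close to that of BIRC5, differences that were not tested. All 9 checkpoint and chromosome kinase genes examined were listed and lower (median -2.29), against the same 24.0%. BUB1 and BUB1B, kinases of the spindle checkpoint, stood at -2.32 ± 0.0690 and -2.31 ± 0.0713, and CIT, the citron kinase of cytokinesis, at -2.21 ± 0.0729 in the authors' deposited table.

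Regulators known to act on promoters of this class moved in part. Of 16 genes of the DREAM and MMB (MYBL2 with MuvB) complexes, FOXM1 and NF-Y, 9 were listed and all 9 were lower, with a median of -1.21. Over all genes tested 45.3% were listed and 24.0% were lower. The share of regulators that was listed, 56.2%, is thus not far from that of any genes. Since every listed regulator was lower, the same share of them was lower, which is above 24.0%. Neither share was tested. MYBL2 stood at -2.66 ± 0.0839, beside CDK1 at -2.67, FOXM1 at -2.18 ± 0.0747 and TFDP1 at -1.21 ± 0.0536 in the authors' deposited table. NFYB was the 1 listed NF-Y subunit gene, at -0.63 ± 0.0828 in the authors' deposited table. E2F4, RBL2 and LIN37 were among the 7 that were not listed.

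Promoter windows were available for 8 of the 10 genes, all but AURKA and PBK. The windows run from 250 bases before to 50 bases after each annotated start, and the 8 genes have 13 of them, since CDC25C has 4, CDK1 and AURKB have 2 each and windows of 1 gene partly overlap. CCAAT was found on either strand in at least 1 window of 8 of 8 genes, against 39.7% of all 27305 genes of any type in the promoter table. By window, it was in 11 of 13, against 34.6% of all 35116. At least 2 CCAAT matches in a window were found for 5 of 8 genes, against 12.9% of all genes. TTTGAA or TTTAAA was found for 5 of 8 genes, against 27.9% of all genes, and always in a window that also held CCAAT, a combination found for 11.2% of all genes. CCAAT and a CHR form can share at most 1 base at their ends. A gene with more windows has more chances to hold a match, and a match of 5 or 6 letters is a description of sequence, not of binding. Promoters of this class are known for these motifs, so the higher shares are no independent finding.

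Positions recurred between some of the genes. All are counted to the first letter of a match along the gene, and those before the most downstream start of CDC25C and the downstream start of CDK1 are not in the stretches printed above, which cover matches within 170 bases before a start and up to 15 bases on each side of them. In CCNB2, matches of CCAAT began 120, 87 and 54 bases before the start, 33 bases apart each time, and TTTGAA began at 29 bases. The same window held a further CCAAT at 244 bases, outside that spacing, and TTTAAA at 193 bases. CCNB1 had CCAAT at 87 and 55 bases, 32 apart, and TTTAAA at 30 bases. In both cyclin B promoters the CHR form followed the last CCAAT by 25 bases. NEK2 had CCAAT at 66 and 34 bases, again 32 apart, and neither CHR form. PLK1 had CCAAT at 73 bases, TTTGAA at 29 bases and TTTAAA at 148 and 88 bases. Before the most downstream start of CDC25C, CCAAT lay at 85 and TTTGAA at 30 bases. Its other starts did not share this position. At the next start upstream TTTGAA lay 43 bases after the start, and the windows further upstream held no match. Before the downstream start of CDK1 lay a CCAAT pair at 78 and 46 bases, 32 apart, with TTTGAA at 69 and 13 bases. The CCAAT matches before the most downstream CDC25C start and the downstream CDK1 start lie on the other strand. Those in CCNB1, CCNB2 and NEK2 lie on the strand of the gene. CCNA2 had a single CCAAT at 56 bases and AURKB a single CCAAT at 129 bases before its upstream start. TTTGAA and TTTAAA were the only CHR forms searched. Genes without them, CCNA2, AURKB and NEK2 among them, are thus not shown to lack the element. Other annotations place some of these starts elsewhere, which would move the distances to the start but not those between motifs.

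**Figure D4:**
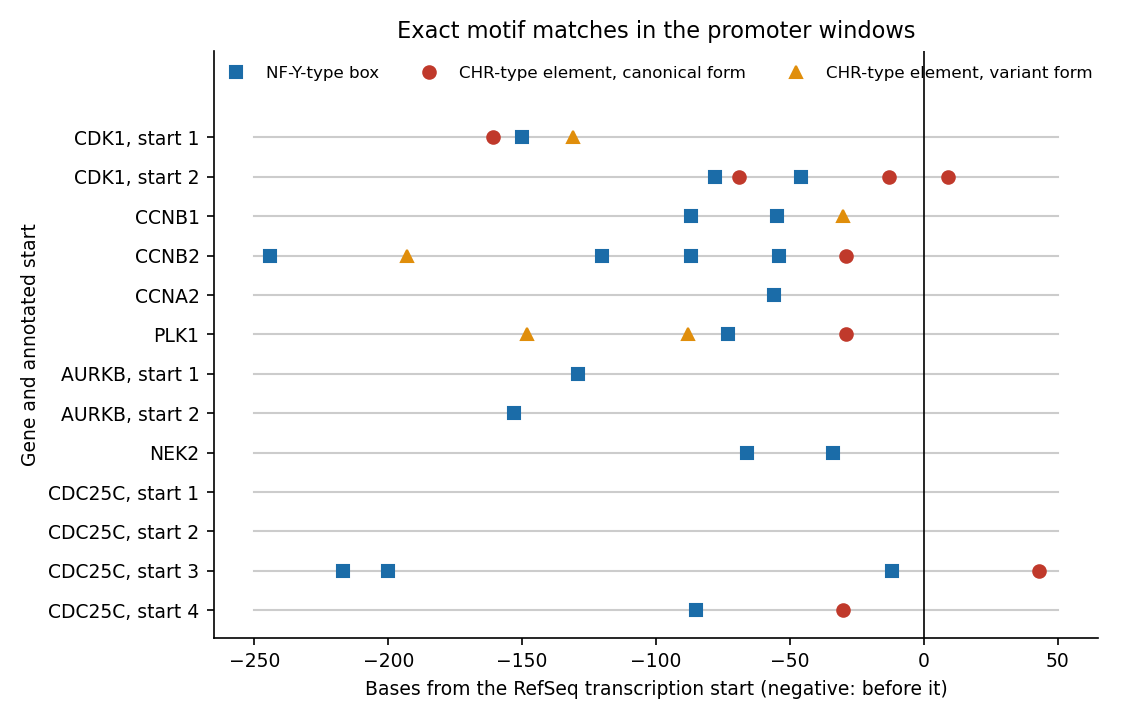
Position of exact matches (x axis, bases from the annotated start, negative before it) in each of the 13 promoter windows of 8 genes (y axis); squares are CCAAT, circles TTTGAA and triangles TTTAAA, on either strand. In CCNB1, CCNB2, PLK1 and the most downstream start of CDC25C a CHR form lies 29 or 30 bases before the start with CCAAT further upstream. The other CDC25C starts do not share this position.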

How the data were processed

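Per the labels' protocols, RNA of MOLM-13 cells was purified on columns and made into mRNA libraries with a SMARTer kit. Groups (3 libraries each) follow the sample titles. STAR, featureCounts, DESeq2 and the build hg19 are named in the submitters' processing notes, with no version or option. The authors deposited 1 table that holds, for each gene, its log2 fold change, its p-value and the adjusted one, per the file headers. All rows have an adjusted p below 0.05. For the 2789 rows with a p above 1e-04, adjusted p times rank over p lay within 0.1% of 15064, the number of genes tested that a Benjamini-Hochberg adjustment implies. Single genes could not be tested anew, so the adjusted p-values, which are over all genes tested, were used as deposited. That the authors obtained them with DESeq2 is assumed.

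The implied SE is the size of the log2 fold change over the standard normal deviate of its p (two-sided). Only its arithmetic was checked, on simulated data with p-values built by the same formula. That check cannot show whether the authors' p-values come from such a test on the deposited fold changes. The 10 genes and the 10 comparison lists (108 genes) were chosen with earlier results of these data known, so no list was tested and lists are given by counts and medians. Named in each list are the up to 3 genes with the smallest adjusted p, the leading gene against the majority, and paralogues of the 10; some of these genes are not printed. WEE1, PKMYT1, INCENP, BORA, NFYB, ENSA, the D-type cyclins, the unlisted regulators named and the overlapping genes were chosen after their values were seen. So were the genes named only because a shift would turn them. List symbols were matched by name, and 2 (SGO1, SGO2) through a RefSeq synonym. Promoter windows were matched by symbol to RefSeq (GRCh38.p14), and overlaps come from GENCODE release 29 (GRCh38), used for order and strand alone. Alternatives were an adjusted p of 0.01, minimum log2 changes of 1 and 2, Bonferroni and Benjamini-Hochberg adjustment, an implied SE of at most 0.2, and every log2 value shifted up or down by 0.3, because the authors' scaling is not known. The software was Python 3.11.15 with SciPy 1.17.1, NumPy 2.4.6, pandas 2.3.3 and, for plots, Matplotlib 3.10.9.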

Additional observations from a re-analysis of the deposited data

How the results depend on the processing

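The count of 10 lower genes was 10 at an adjusted p of 0.01, with Bonferroni adjustment over 15064 tests, with Benjamini-Hochberg adjustment over the rows of the table, with an implied SE of at most 0.2, with a minimum log2 change of 1 and with either shift, and 8 with a minimum change of 2, which AURKA and CDC25C do not reach. The largest p of the table was 0.0227, so the adjustment over its rows keeps every listed gene. The 10 genes had adjusted p-values of at most 9.26e-33, implied SEs of at most 0.134 and log2 values of at most -1.53. The other counts of 10 thus followed from these values and are no separate support. Their median log2 fold change of -2.44 became -2.14 or -2.74 with all values shifted by 0.3 up or down, by construction, and lay between -2.52 and -2.37 without any 1 gene. In the comparison lists 54 genes were lower and 20 higher, and the higher ones became 13 with the downward shift. The median of the other cell cycle cyclins turned to -0.13 with the downward shift and that of the other cyclin-dependent kinases to 0.0922 with the upward one. The shift was applied to listed genes alone, and none entered or left. No paired analysis was possible because the table has no values per library, and for the same reason no library could be left out and no count model, other normalization or filter on low counts was run. Depth is unknown.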

Other observations

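In the order of log2 fold changes, PBK stood between the helicase gene PIF1, at -2.79 ± 0.184, and the separase gene ESPL1, at -2.70 ± 0.0839 in the authors' deposited table. AURKA, at the other end of the 10, stood between DAB2IP, at -1.53 ± 0.388, and CCDC74A, at -1.53 ± 0.565 in the authors' deposited table, both far less precise than AURKA itself.

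The same motifs were counted in the promoters of all 10 related lists, where CCAAT was found for 39.7% of all genes of the promoter table and a CHR form (TTTGAA or TTTAAA) for 27.9%. CCAAT was found for 8 of 10 matched modifiers and partners of CDK1 and cyclin B, 8 of 9 Aurora partners, 4 of 6 checkpoint and chromosome kinases and 7 of 13 regulators of such promoters. A CHR form was found for 8, 5, 2 and 6 of these. Among other cell cycle cyclins 2 of 5 matched genes had CCAAT and 2 a CHR form, among cyclins of transcription and other roles 7 and 5 of 12, and among other cyclin-dependent kinases 4 and 3 of 18. For CDK inhibitors these counts were 3 and 1 of 6, for other polo-like kinases 1 and 1 of 3, and for other NIMA-related kinases 3 and 2 of 9. Over all genes of the deposited table with a window, a CHR form was found for 22.6% of the lower and 22.5% of the higher genes, and CCAAT for 45.8% and 42.2%.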
